A study of Rattus norvegicus with 15 samples.

Results

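The axon guidance and neural adhesion genes described here are 116 of the 8621 genes (1.35%) that the 3 deposited RNA-seq tables list. They were taken by gene name: semaphorins, plexins with the Plxdc genes and neuropilins, ephrins and Eph receptors, Slit and Robo, netrins with Dcc, Unc5 and the RGM genes, contactins and the L1, NCAM and DSCAM groups, Cadm and nectins, cadherins (Cdh5 and Cdh19 left out), protocadherins, and the Slitrk, Amigo, Lrrn, Flrt and teneurin genes. RNA was sequenced from the adrenal medulla of 15 rats, freed of cortex by macrodissection. WT rats (n = 5) were Sprague-Dawley rats with a normal medulla at 7 to 9.5 months of age. The MENX rats of this colony are homozygous for a spontaneous frameshift mutation in Cdkn1b, which encodes the cell cycle inhibitor p27, and they were sampled with medullary hyperplasia (HYP, n = 5) at 4 to 5 months and with pheochromocytoma, a tumour of the chromaffin cells (PCC, n = 5), at 7 to 9.5 months. HYP and WT rats therefore differed in genotype and in age, which cannot be told apart, while PCC and HYP rats shared the mutation and differed in stage and age. The mutation is carried in every tissue and not in chromaffin cells alone, and advanced tumours are part of the PCC group and were not split off.

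Axons and migrating cells steer by ligands that attract or repel them. Semaphorins act through plexins and neuropilins, ephrins through Eph receptors, Slits through Robo receptors and netrins through Dcc and Unc5, and these receptors act on the actin skeleton through small GTPases. Cadherins, protocadherins and adhesion molecules of the immunoglobulin (Ig) superfamily hold neurites and cells to each other. Chromaffin cells arise from the neural crest, as sympathetic neurons do, and the same ligands also shape blood vessels.

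Each table lists only genes that the study had called at an adjusted p under 0.05 in that comparison, so that every member was called at least once and its calls here are no independent evidence of change. Of the members, 94 are in the table of PCC vs. WT, 81 in that of HYP against WT and 48 in that of PCC against HYP, and 83 members have counts in all 15 samples. All 116 are annotated as protein-coding genes. Library totals were not given and were recovered from the counts, FPKM and gene lengths of the listed genes. These recovered library totals were 16315018 to 23831269 reads. Levels are given in CPM, the count scaled to library size, on a scale common to the 15 samples, and fold changes on the log2 scale with the standard error (SE) from the 10 samples compared. Cdkn1b itself was at 42.6 to 75.9 CPM in WT, 79.9 to 125 CPM in HYP and 108 to 175 CPM in PCC samples and rose by 1.32 ± 0.20 on the log2 scale in PCC (adjusted p = 0.000707). It rose by 0.78 ± 0.16 in HYP (adjusted p = 0.00757), and gene counts do not check the frameshift.

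Summed levels of cell type markers moved with the groups. The summed level of 9 of 16 adrenal cortex markers with counts in all samples was 28609 to 56621 CPM in WT, 12519 to 32447 CPM in HYP and 905 to 14435 CPM in PCC samples, so that WT medulla still held cortical RNA. For chromaffin cells, the sum over 11 of 15 markers, Th and Dbh among them, was 1960 to 10074 CPM in WT, 11172 to 15714 CPM in HYP and 19379 to 38414 CPM in PCC samples. The endothelial sum (7 of 13 markers) was 543 to 709.8 CPM in WT and 227 to 432 CPM in PCC samples. Among these markers Vwf went the other way, at 9.16 to 20.7 CPM in WT and 30.3 to 60.0 CPM in PCC samples. By qRT-PCR the study reports the endothelial marker CD34 as higher in PCC. The Schwann and sustentacular sum (8 of 12) was 69.4 to 229 CPM in WT and 347 to 466 CPM in PCC samples. Ngfr carried most of it in PCC (255 to 379 CPM), while S100b was lower (33.2 to 79.7 CPM in WT, 2.36 to 11.8 CPM in PCC). The sum of 5 of 10 fibroblast and mural markers was 61.1 to 122 CPM in WT and 612 to 2358 CPM in PCC samples, but the pericyte gene Rgs5 carried most of it in PCC (19.6 to 31.1 CPM in WT, 471 to 2220 CPM in PCC). Without Rgs5 the other 4 markers summed to 40.3 to 97.5 CPM in WT and 138 to 248 CPM in PCC samples, and Pdgfra was at 5.57 to 8.42 CPM in WT and 1.54 to 8.64 CPM in PCC samples. The sum of 7 of 10 neuron and neurite markers was 148 to 524 CPM in WT and 1384 to 2537 CPM in PCC samples. Prph, Snap25 and Syp carried most of it in PCC, while the neurofilament gene Nefh was lower (41.4 to 81.7 CPM in WT, 8.29 to 32.4 CPM in PCC). Of 11 leukocyte markers only Cd14 is listed. WT replicate 5 had the lowest chromaffin sum, 1960 CPM against 6031 to 10074 CPM in the other WT samples, and was the lowest WT sample for 48 of the 83 members with counts in all samples, and HYP replicate 1 was the lowest HYP sample for 44 of them. In bulk tissue, fewer cells of a type and less RNA per cell cannot be told apart, and the part of the cell types in the changes below was not tested.

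**Figure D1:**
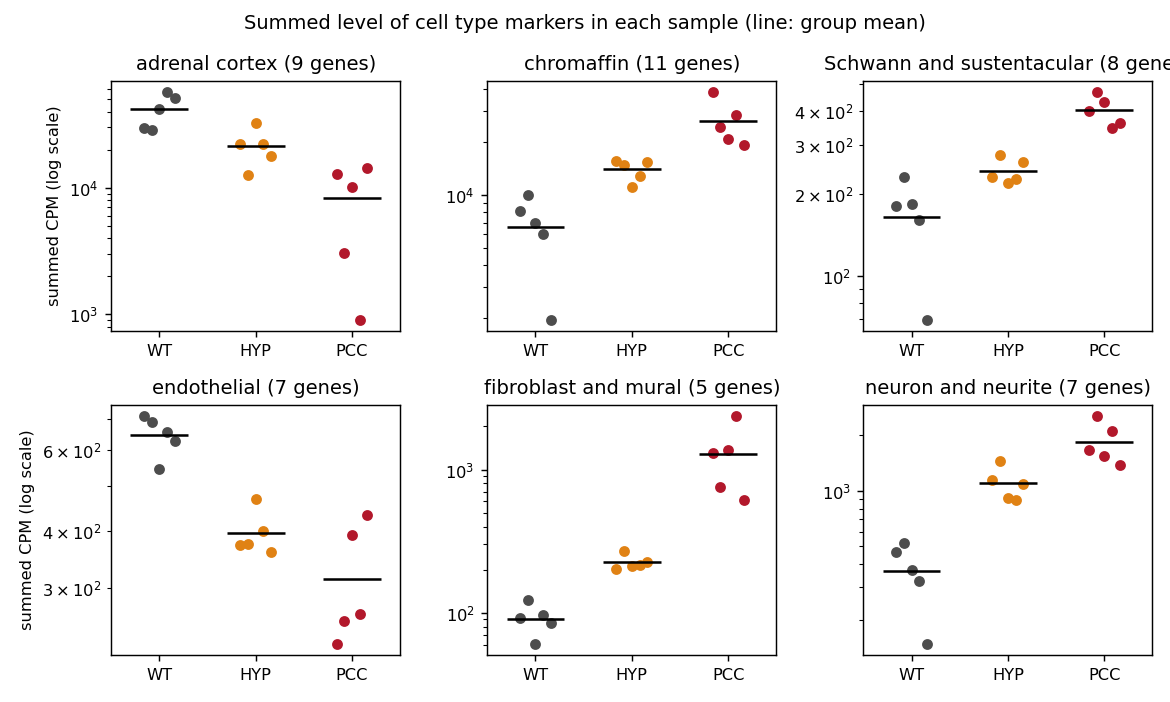
Summed CPM (log scale) of 6 cell type marker lists in the 5 WT, 5 HYP and 5 PCC samples, 1 point per rat with the group mean as a line. Chromaffin sums lie between 1960 and 10074 CPM in WT and between 19379 and 38414 CPM in PCC samples, while cortex sums fall from 28609 or more in WT to 14435 or less in PCC samples.

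PCC were compared with WT medulla to see which members differ between tumour and normal tissue. Most adhesion molecules were higher in PCC, with the largest rises in Cntnap5b, neurofascin (Nfasc), Cdh22, L1cam, Pcdhga1 and Pcdhga2, and the Eph receptors Epha8 and Ephb3 rose with them. A smaller set was lower, among them Plxnc1, Sema6a, Sema3d, Ntn5, Efnb2 and its receptor Ephb4. Of the 89 members tested, 67 (75.3%) were higher and 12 (13.5%) lower, whereas 46.7% of the 7001 genes tested in this table were called higher and 38.5% lower, 85.2% in all. These shares of all genes are the reference for the counts by family in PCC vs. WT. The median log2 fold change was 1.87 over the members and 0.44 over all genes tested. The chromaffin sum rose 3.84-fold between the same samples (1.94 on the log2 scale), and 44 members rose by more than this and 45 by less or fell. The low-count filter removed 5 of the listed members (Cntn3, Dcc, Dscaml1, Efnb3 and Pcdhb14), and without it 70 of 94 were higher and 13 lower. Without WT replicate 5, 66 members of 92 tested were higher and 11 lower. No called member changed sign under any of the 19 alternatives run for each of the 3 comparisons.

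**Figure D2:**
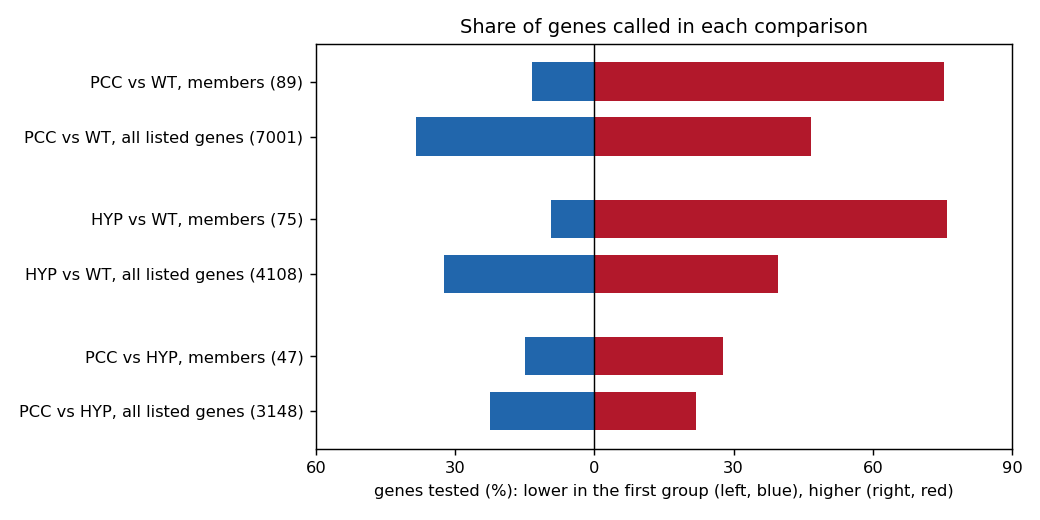
Share of genes tested (%) that were called lower (left, blue) and higher (right, red) in the first group of each comparison, for the members and for all listed genes tested, with the number tested in brackets. In PCC vs. WT and in HYP vs. WT 75.3% and 76.0% of the members were higher, against 46.7% and 39.5% of all genes tested, and in PCC vs. HYP 27.7% against 21.8%.

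Among the ligands, the secreted Sema3c (chr4:14318274-14490446 in Rn06, the build of the tables) was at 3.39, 6.86, 4.55, 6.19 and 1.43 CPM in the WT samples 1 to 5 and at 62.3, 20.3, 23.5, 33.9 and 32.5 CPM in the PCC samples. The lowest PCC sample lay well above the highest WT sample, and Sema3c rose by 2.90 ± 0.44 on the log2 scale (7.44-fold, adjusted p = 0.000707). Sema6a (chr18:41333551-41389510), a membrane-bound semaphorin that binds A-type plexins, was at 85.7, 107, 82.4, 68.7 and 55.3 CPM in WT and 16.1, 29.1, 26.2, 19.2 and 26.5 CPM in PCC. It fell by 1.80 ± 0.23 on the log2 scale (adjusted p = 0.000341) with no overlap between the groups. Sema3d fell by 1.82 ± 0.41 (9.77 to 13.6 CPM in WT and 0.723 to 5.15 CPM in PCC, adjusted p = 0.00551). Sema4d, the ligand of plexin B1, rose by 0.80 ± 0.21 (adjusted p = 0.0128). Of 8 semaphorins tested, 4 were higher and 2 lower.

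The transmembrane ephrin Efnb2 (chr16:86631064-86675049), which marks arterial endothelium, was at 69.1, 73.7, 114, 80.8 and 74.5 CPM in WT and at 25.6, 25.5, 28.2, 24.97 and 54.3 CPM in PCC. The groups did not overlap, with PCC replicate 5 nearest to WT, and Efnb2 fell by 1.41 ± 0.25 (adjusted p = 0.00176). Its receptor Ephb4 (chr12:22393330-22417980), which marks venous endothelium, was at 74.4, 64.4, 85.9, 84.7 and 137 CPM in WT and at 23.6, 15.3, 45.3, 14.8 and 57.2 CPM in PCC and fell by 1.53 ± 0.39 (adjusted p = 0.011). With library sizes set to the sum of the listed counts, Ephb4 was not called (log2 fold change -1.01, adjusted p = 0.0788). The sum of endothelial markers was 2.10-fold lower in PCC between these samples, although Vwf, which is part of it, was higher. Efna1, a GPI-anchored ephrin, rose by 0.71 ± 0.19 (adjusted p = 0.0155).

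The receptor tyrosine kinase Epha8 (chr5:155295314-155316495) had the largest rise of the Eph receptors. It was at 0.355, 1.19, 0.740, 4.15 and 0.0679 CPM in WT, at 3.27, 2.54, 2.44, 2.25 and 2.19 CPM in HYP and at 17.3, 65.6, 61.2, 114 and 31.4 CPM in PCC. The lowest PCC sample was above the highest sample of either other group, WT replicate 4 stood above the other WT samples, and the rise over WT was 5.45 ± 0.85 on the log2 scale (adjusted p = 0.000813). Ephb3, a receptor of B-type ephrins, rose from 0.136 to 0.516 CPM in WT to 1.71 to 4.12 CPM in PCC (3.23 ± 0.44, adjusted p = 0.000444). Of 6 Eph receptors tested, 3 were higher and 1 lower.

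Slit3, a secreted Robo ligand, rose by 2.06 ± 0.33 (17.9 to 58.3 CPM in WT, 106 to 254 CPM in PCC, adjusted p = 0.000941) and was the only member of the Slit and Robo family tested here. The family of netrins, netrin receptors and RGM genes went both ways, with Ntn1, the receptor Unc5c and Rgmb higher and Ntn5, Ntng2 and the receptor Unc5d lower. Ntn1 (chr10:54761871-54967585), the secreted ligand of Dcc and Unc5 receptors, was at 6.13, 8.88, 10.2, 6.31 and 2.72 CPM in WT and 35.3, 36.6, 55.1, 85.3 and 32.1 CPM in PCC and rose by 2.79 ± 0.39 (adjusted p = 0.000495). Ntn5 (chr1:101669086-101677596) was at 12.9, 14.4, 7.30, 9.12 and 4.55 CPM in WT and at 0, 0.254, 1.38, 0.241 and 1.62 CPM in PCC. These groups did not overlap either, and Ntn5 fell by 3.79 ± 0.80 (adjusted p = 0.00398). Ntng2, a membrane-anchored netrin, fell by 1.69 ± 0.33 (adjusted p = 0.00246), and Rgmb, a co-receptor of bone morphogenetic proteins, rose by 2.14 ± 0.25 (adjusted p = 0.000195).

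Plexins, the semaphorin receptors, were split as well, with 3 of 8 plexins and neuropilins tested higher and 3 lower. Plxnb1 (chr8:117836701-117856689), the receptor of Sema4d, was at 25.6, 22.9, 27.3, 19.96 and 68.5 CPM in WT and at 132, 134, 172, 219.9 and 134 CPM in PCC. It rose by 2.26 ± 0.33 (adjusted p = 0.000613), although WT replicate 5 was far above the other WT samples. Plxnc1 (chr7:35850398-36000906), the receptor of Sema7a, was at 20.1, 27.1, 22.9, 23.0 and 26.9 CPM in WT, at 5.12, 9.22, 15.7, 14.4 and 15.8 CPM in HYP and at 6.09, 2.80, 4.64, 1.98 and 3.46 CPM in PCC. The WT samples lay above all HYP and PCC samples, and Plxnc1 fell by 2.69 ± 0.29 in PCC (adjusted p = 0.000144). Plxdc1, a plexin domain protein known from tumour endothelium, rose by 3.70 ± 0.45 (0.136 to 0.476 CPM in WT, 1.84 to 5.64 CPM in PCC, adjusted p = 0.000245).

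The Ig adhesion molecules held the largest rises, with 8 of 9 tested higher and none lower. The low-count filter had removed Cntn3 and Dscaml1 from this family, so that the main fit tested neither. The contactin Cntn3, at 1.01, 1.03, 1.11, 0.383 and 1.22 CPM in WT and at 0.0922, 0.153, 0.138, 0 and 0.0855 CPM in PCC, was lower in PCC without overlap. Nfasc (chr13:49335408-49522415), which clusters ion channels at the axon initial segment and at nodes of Ranvier, was at 4.31, 10.3, 5.45, 10.8 and 1.90 CPM in WT, at 55.9, 49.8, 34.1, 62.9 and 56.9 CPM in HYP and at 290.5, 288, 305, 497 and 175 CPM in PCC. The 3 groups formed separate steps, and the rise in PCC over WT was 5.52 ± 0.51 on the log2 scale (46.0-fold, adjusted p = 9.87e-05). L1cam (chrX:156909913-156928057), a relative of neurofascin on growing axons, was at 12.1, 26.6, 12.5, 14.2 and 5.36 CPM in WT, at 171, 231, 139, 156 and 190.3 CPM in HYP and at 261, 362, 246, 181 and 203 CPM in PCC. Its HYP and PCC ranges overlapped while all 10 samples of MENX rats were above every WT sample, and it rose by 4.10 ± 0.40 in PCC over WT (adjusted p = 0.000101). The contactin-associated Cntnap5b (chr13:21678512-22590586) had 2 counts in all WT libraries together and 837 in the PCC libraries, a ratio of 338 after scaling for depth, with a 95% exact interval of 93.1 to 2792 that covers counting error only. Its groups did not overlap (2.14 to 15.8 CPM in PCC, adjusted p = 0.000183).

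The Cadm genes, which join synapses and neighbouring cells, were higher in 4 of 4 cases, against 46.7% of all genes tested. Cadm1 (chr8:52127399-52189722) was at 51.3, 67.2, 57.0, 40.4 and 18.7 CPM in WT and at 301, 314, 315, 194 and 258 CPM in PCC, without overlap, and rose by 2.52 ± 0.32 (adjusted p = 0.000311). It had the highest level per gene length of the members with PCC values, 152 ± 31.2 FPKM (mean ± SD, n = 5; FPKM as deposited, scaled by gene length and depth), after 22.0 ± 9.71 FPKM in WT. On the same scale Nfasc went from 0.620 ± 0.372 FPKM in WT to 34.8 ± 13.9 FPKM in PCC. Its rank was 64 of the 112 members with WT values and 8 of the 102 with PCC values, which are not the same set. The spread between PCC samples is large, so that ranks of neighbouring members are not told apart.

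Of 9 cadherins tested, 5 were higher, 1 was lower and 3 were not called. Cdh22 (chr3:161575631-161917285), a brain cadherin, was at 3.44, 5.11, 2.75, 4.40 and 1.15 CPM in WT, at 26.7, 24.9, 13.7, 23.4 and 25.6 CPM in HYP and at 68.6, 83.5, 78.4, 119 and 68.6 CPM in PCC. Like Nfasc it formed separate steps, and it rose by 4.58 ± 0.37 in PCC over WT (24.0-fold, adjusted p = 7.76e-05). Cdh6 rose by 3.45 ± 0.38 (adjusted p = 0.000149). Cdh17, the cadherin of liver and intestine epithelium, was at 6.53, 5.42, 15.3, 14.0 and 34.5 CPM in WT and at 2.26, 1.53, 2.25, 1.11 and 2.35 CPM in PCC and fell by 3.00 ± 0.49 (adjusted p = 0.00109). It was highest in WT replicate 5, the sample with the lowest chromaffin sum.

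**Figure D3:**
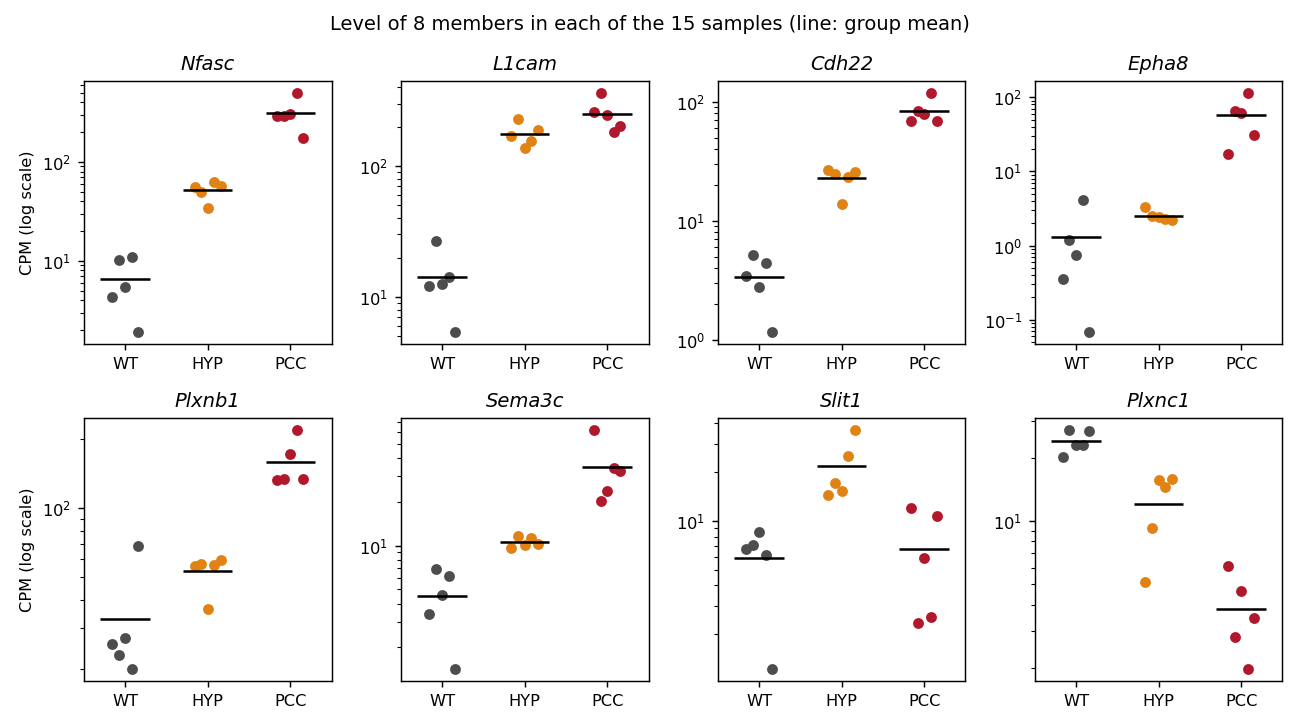
CPM (log scale) of 8 members in each of the 15 samples, 1 point per rat with the group mean as a line. Nfasc and Cdh22 rise in separate steps from WT over HYP to PCC, L1cam reaches 139 CPM or more in every HYP sample, Epha8 leaves the range of the other groups in PCC, and Plxnc1 falls, while Slit1 is highest in HYP (14.5 to 36.6 CPM).

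Protocadherins were the family with the most members, 31, of which 26 belong to the alpha, beta and gamma clusters on chromosome 18 (29960072 to 30969361). In these clusters each gene has its own first exon, and the alpha and the gamma genes each splice it to shared constant exons, so that the combinations a neuron expresses give it an identity. All 23 clustered protocadherins tested in PCC vs. WT were higher (3 alpha, 8 beta and 12 gamma genes), by 1.00 to 4.08 on the log2 scale (median 2.00). Of them 21 did not overlap between the groups, against 66.2% of all genes tested. The gene models of Pcdhac1 (29987206 to 30215897) and Pcdhgc3 (30913842 to 30969361) span the shared exons, and the variable exons of neighbouring genes are alike, so that the split of reads among cluster genes is uncertain.

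The largest rises of cluster genes were in Pcdhga1, Pcdhga2 and Pcdhga3, which lie side by side at the start of the gamma cluster. Pcdhga1 was at 0.962, 0.464, 0.952, 1.28 and 0.272 CPM in WT and at 13.8, 9.66, 13.9, 28.8 and 2.52 CPM in PCC, and Pcdhga2 at 1.01, 0.361, 0.582, 0.510 and 0.611 CPM in WT and at 11.7, 7.37, 7.45, 19.7 and 4.06 CPM in PCC. PCC replicate 4 was the highest and PCC replicate 5 the lowest for both, and they rose by 4.08 ± 0.62 (adjusted p = 0.000748) and 3.98 ± 0.47 (adjusted p = 0.000223). Pcdhga3 rose by 3.07 ± 0.38 (adjusted p = 0.000261). Pcdhac1, counted over the alpha constant exons as well, went from 12.3 to 28.2 CPM in WT to 88.2 to 202 CPM in PCC (2.67 ± 0.28, adjusted p = 0.000124). Of the 5 protocadherins outside the clusters, 4 were tested, and Pcdh20 has no PCC counts. Pcdh12, found on endothelial cells, was the only one of those tested that was lower in PCC (16.0 to 25.6 CPM in WT, 8.34 to 14.0 CPM in PCC, -0.84 ± 0.22, adjusted p = 0.0121). With the recovered library totals or the total of the listed counts it was not called (adjusted p = 0.177 and 0.633).

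Since the clustered genes rose together, their promoters are shown here to let their letters be compared. RefSeq promoters of build GRCr8, 250 bases before to 50 after the annotated start, were matched by symbol for 82 of the 116 members, 8 beta and 9 gamma cluster genes among them. All 8 beta promoters hold GGTGGCGCTG, the 10 bases shared by most of them, 46 to 98 bases before the start and on the coding strand, while 0 of the 9 gamma promoters and 0.221% of all 33469 promoters of the same length hold it on either strand. Pcdhga2 and Pcdhga3 share a longest run of 15 bases that no other promoter of the table holds. The capitals below mark the beta string in Pcdhb10, Pcdhb12 and Pcdhb19 and the shared run in Pcdhga2 and Pcdhga3. Both strings were chosen from these sequences and describe letters only.
Pcdhb10, chr18:29391610-29391909, + strand: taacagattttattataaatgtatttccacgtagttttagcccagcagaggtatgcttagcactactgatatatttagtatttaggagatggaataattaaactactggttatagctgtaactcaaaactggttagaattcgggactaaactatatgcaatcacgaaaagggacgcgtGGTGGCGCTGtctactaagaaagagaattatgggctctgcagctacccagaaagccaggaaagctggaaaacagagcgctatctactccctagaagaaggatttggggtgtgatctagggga
Pcdhb12, chr18:29413506-29413805, + strand: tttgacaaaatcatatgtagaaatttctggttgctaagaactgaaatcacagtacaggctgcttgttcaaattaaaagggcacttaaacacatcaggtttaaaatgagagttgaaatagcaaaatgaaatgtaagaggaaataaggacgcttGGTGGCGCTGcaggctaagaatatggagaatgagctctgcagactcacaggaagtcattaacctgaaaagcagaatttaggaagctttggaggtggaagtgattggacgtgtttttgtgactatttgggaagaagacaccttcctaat
Pcdhb19, chr18:29478598-29478897, + strand: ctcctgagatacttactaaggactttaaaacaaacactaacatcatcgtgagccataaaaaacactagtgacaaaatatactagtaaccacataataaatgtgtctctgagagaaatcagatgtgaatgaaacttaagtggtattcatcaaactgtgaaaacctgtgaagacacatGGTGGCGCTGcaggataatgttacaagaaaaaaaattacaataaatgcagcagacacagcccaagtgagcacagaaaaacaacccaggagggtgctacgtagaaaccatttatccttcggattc
Pcdhga2, chr18:29744939-29745238, + strand: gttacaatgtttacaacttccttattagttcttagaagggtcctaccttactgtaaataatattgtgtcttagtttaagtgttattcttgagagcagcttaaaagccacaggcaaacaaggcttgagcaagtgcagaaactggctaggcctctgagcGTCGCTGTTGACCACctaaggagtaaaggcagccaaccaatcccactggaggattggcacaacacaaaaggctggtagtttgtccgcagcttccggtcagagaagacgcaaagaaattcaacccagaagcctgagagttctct
Pcdhga3, chr18:29750133-29750432, + strand: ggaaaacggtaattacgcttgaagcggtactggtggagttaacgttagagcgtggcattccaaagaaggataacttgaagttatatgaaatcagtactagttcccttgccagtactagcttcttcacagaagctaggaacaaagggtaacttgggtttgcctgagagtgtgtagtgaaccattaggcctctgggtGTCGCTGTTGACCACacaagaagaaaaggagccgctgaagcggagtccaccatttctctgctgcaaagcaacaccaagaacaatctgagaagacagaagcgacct
Their coordinates belong to GRCr8 and not to Rn06. Pcdhb10 rose from 0.339 to 1.03 CPM in WT to 2.05 to 3.87 CPM in PCC (2.27 ± 0.37, adjusted p = 0.000994), Pcdhb12 by 1.75 ± 0.39 (adjusted p = 0.00558) and Pcdhb19 by 2.15 ± 0.30 (adjusted p = 0.000475), so that genes with and without the beta string rose.

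**Figure D4:**
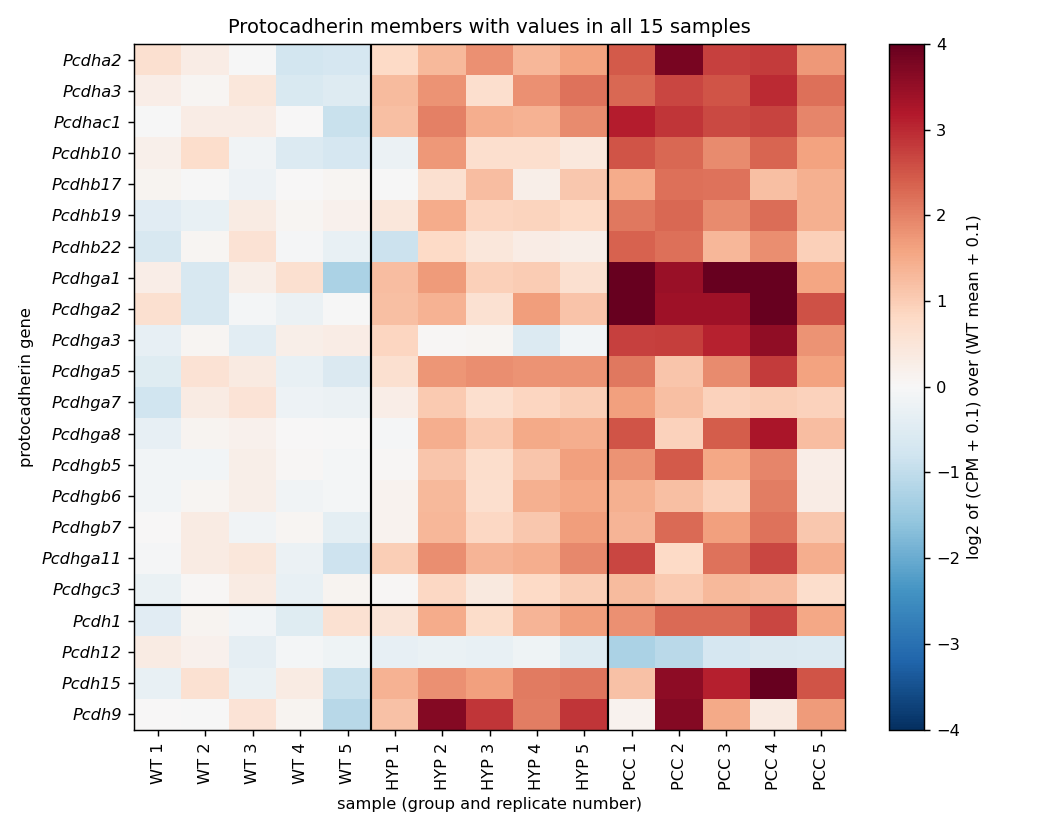
Level of 22 protocadherins with counts in all 15 samples, as log2 of (CPM + 0.1) over (WT mean + 0.1), for each sample (columns) and gene (cluster genes in chromosomal order above the line, other protocadherins below it). PCC samples are red throughout the clusters, most strongly for Pcdhga1 and Pcdhga2, HYP samples are paler, and Pcdh12 is blue in PCC.

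Of the 12 leucine-rich repeat and teneurin genes, 9 were tested in PCC vs. WT and 9 were higher, against 46.7% of all genes tested. Slitrk6, a synaptic adhesion protein, was at 0.456, 1.86, 0.370, 0.574 and 0.272 CPM in WT and at 4.24, 9.20, 12.7, 2.65 and 10.2 CPM in PCC (3.40 ± 0.62, adjusted p = 0.00181). Tenm4, a teneurin that joins neurites to their targets, rose by 2.42 ± 0.33 (6.38 to 19.8 CPM in WT, 45.5 to 92.7 CPM in PCC, adjusted p = 0.000406).

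A list of 80 pathway partners was looked at as well. It holds cytoplasmic effectors, co-receptors and other surface proteins, and genes of growing neurites such as Gap43, Tubb3 and Dcx. Of these partners 40 were tested in PCC vs. WT, 28 higher and 7 lower (median 1.64 on the log2 scale). With 87.5% of them called, the partners were close to the 85.2% of all genes tested, while 70.0% were higher against 46.7%. Srgap3, a Slit-Robo GTPase-activating protein, rose by 2.64 ± 0.22 (adjusted p = 8.08e-05), and Dpysl3, a collapsin response mediator protein downstream of semaphorins, by 3.02 ± 0.33 (adjusted p = 0.000148). The ankyrin Ank2 rose by 2.56 ± 0.30 (adjusted p = 0.000223) and Sptbn4, a spectrin bound by ankyrins, by 3.38 ± 0.56 (adjusted p = 0.00115), and ankyrins hold neurofascin and L1 to the membrane skeleton. Farp1, a plexin-binding exchange factor, fell by 2.53 ± 0.44 (adjusted p = 0.00139). These partners were named after their values were seen.

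HYP was compared with WT medulla to find which members differ at the stage of hyperplasia. Adhesion molecules were again mostly on the higher side. By the rule used to name genes, Dscaml1, L1cam, Slitrk6, Nfasc and Pcdh9 had the largest rises, and Ntn5, Cdh24, Sema3d, Plxnc1 and Ntng2 the largest falls. Of 75 members tested, 57 (76.0%) were higher and 7 (9.33%) lower, while 39.5% of the 4108 genes tested were called higher and 32.5% lower, 72.1% in all, and 49 members (65.3%) did not overlap between the groups, against 57.1% of all genes tested. The median log2 fold change was 1.27 over the members and -0.37 over all genes tested. The chromaffin sum rose 2.12-fold, and 50 members rose by more. Both comparisons use the same WT samples, so their values are given side by side and are not separate evidence. The filter removed 6 listed members (Cdh3, Cntn3, Cntnap5a, Efnb3, Ephb3 and Slitrk3), and without it 63 of 81 were higher and 8 lower. Without WT replicate 5, 61 of 79 members tested were higher and 7 lower.

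L1cam was already at 139 to 231 CPM in HYP, above 26.6 CPM in the highest WT sample, and rose by 3.65 ± 0.34 on the log2 scale (12.5-fold, adjusted p = 0.000181), beside 4.10 in PCC. Nfasc rose by 2.98 ± 0.39 (7.91-fold, adjusted p = 0.000751) and Cdh22 by 2.76 ± 0.33 (adjusted p = 0.000489), beside 5.52 and 4.58 in PCC. Slitrk6 rose by 3.36 ± 0.45 (adjusted p = 0.000938), with 5.28 to 10.5 CPM in HYP and 2.65 to 12.7 CPM in PCC, ranges that overlap. Dscaml1 (chr8:49737798-50055560), a DSCAM-like adhesion molecule that spaces neurites, had 2 counts in all WT libraries together and 233 in the HYP libraries, a ratio of 116 after scaling for depth with a 95% counting interval of 31.7 to 963 (adjusted p = 0.000215). It was at 1.67, 3.20, 1.32, 3.37 and 3.27 CPM in HYP and at 0.415, 0.509, 0.276, 0.337 and 1.03 CPM in PCC, so that HYP stood above both other groups.

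Pcdh9 rose by 2.83 ± 0.45 in HYP (0.407 to 1.48 CPM in WT, 2.34 to 13.7 CPM in HYP, adjusted p = 0.0021). In PCC it was at 1.11, 13.7, 3.03, 1.30 and 3.46 CPM (2.14 ± 0.68 over WT, adjusted p = 0.0327). That call was lost without PCC replicate 2 (log2 fold change 1.14, adjusted p = 0.103) and without WT replicate 1, 2, 4 or 5 (adjusted p between 0.0652 and 0.0668). Slit1, a secreted Robo ligand, was at 6.69, 7.07, 8.57, 6.19 and 1.22 CPM in WT and at 14.5, 17.1, 15.4, 25.3 and 36.6 CPM in HYP and rose by 1.87 ± 0.42 (adjusted p = 0.0104). Of the 15 clustered protocadherins tested, 13 were higher and 0 lower (median 1.23 on the log2 scale), against 39.5% and 32.5% of all genes tested. Of these 15, 8 did not overlap between the groups, against 57.1% of all genes tested.

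On the lower side, Ntn5 was at 3.15, 1.44, 2.13, 2.53 and 2.00 CPM in HYP, below 4.55 CPM in the lowest WT sample, and fell by 2.10 ± 0.32 (adjusted p = 0.00182). Cdh24 (chr15:33278713-33285779), a classical cadherin, was at 274, 220.3, 151, 151 and 88.7 CPM in WT, at 86.4, 58.2, 64.8, 83.7 and 69.9 CPM in HYP and at 80.4, 161, 133, 233 and 118 CPM in PCC. Only the HYP samples were all below the WT samples, and Cdh24 fell there by 1.28 ± 0.25 (adjusted p = 0.00575). Sema3d fell by 1.17 ± 0.25 (adjusted p = 0.00849), Plxnc1 by 1.00 ± 0.28 (adjusted p = 0.0305) and Ntng2 by 0.79 ± 0.20 (adjusted p = 0.0204). The calls of Cdh24, Sema3d, Plxnc1 and Ntng2 were lost with library sizes set to the sum of the listed counts (adjusted p = 0.0593, 0.0791, 0.463 and 0.802). Plxnc1 was also lost without WT replicate 2, 3 or 4 or HYP replicate 2, and Ntng2 without HYP replicate 2, 3 or 5 (adjusted p between 0.051 and 0.0788 in these fits). Efnb2 and Ephb4, both listed for this comparison, did not pass the quasi-likelihood test of edgeR in HYP (-0.76 ± 0.25, adjusted p = 0.058, and -0.67 ± 0.24, adjusted p = 0.0828). Adjusted over the listed genes alone both passed (0.0132 and 0.0188), Efnb2 also with DESeq2 (adjusted p = 0.0299) and without HYP replicate 1 (adjusted p = 0.0118), and Ephb4 with the replicate number as a block (adjusted p = 0.0452).

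Of the pathway partners 31 were tested in HYP vs. WT, 26 higher and 2 lower (median 1.15 on the log2 scale), or 83.9% and 6.45% against 39.5% and 32.5% of all genes tested. Srgap3 rose by 2.14 ± 0.22 (adjusted p = 0.000259), Ank2 by 2.24 ± 0.28 (adjusted p = 0.000691) and Sptbn4 by 2.31 ± 0.37 (adjusted p = 0.00212).

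**Figure D5:**
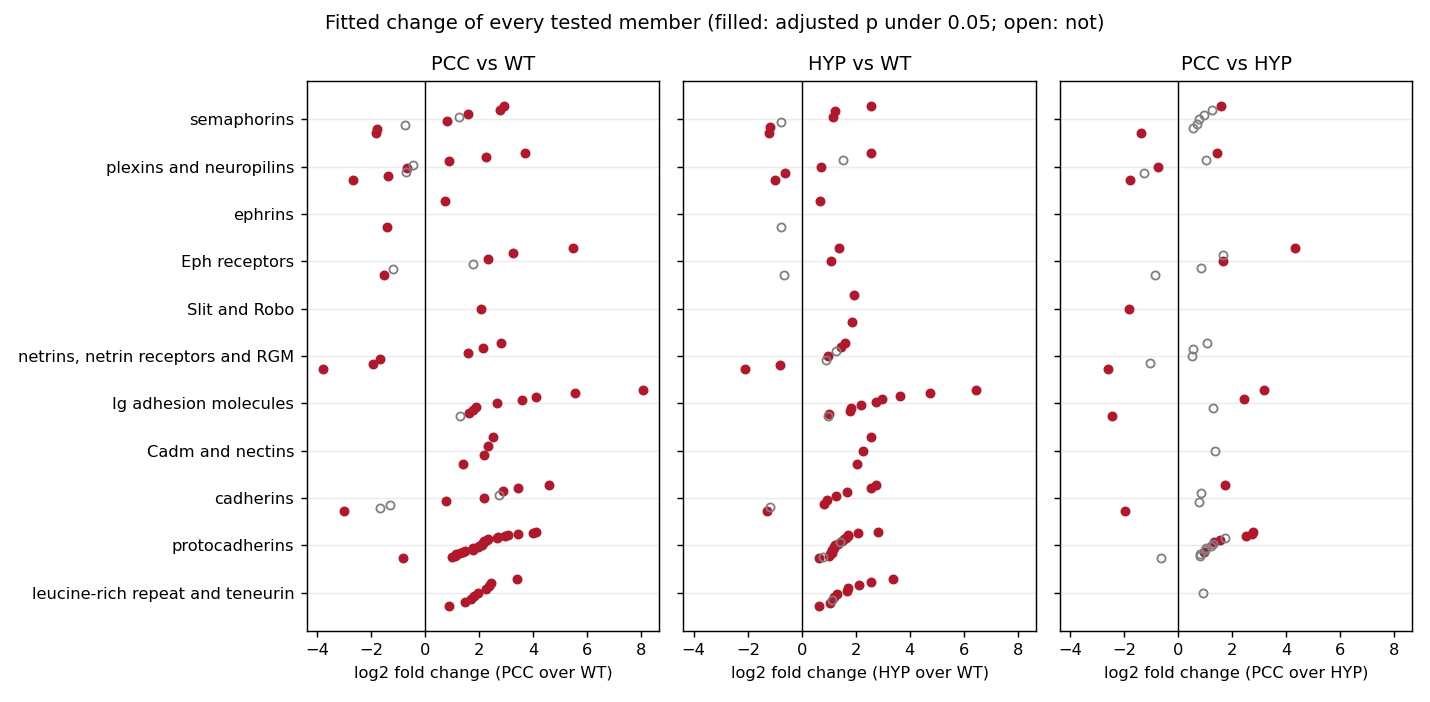
Log2 fold change of every tested member by family in the 3 comparisons (filled points: adjusted p under 0.05, open points: not). Ig adhesion molecules, Cadm genes, protocadherins and the leucine-rich repeat and teneurin family lie to the right of 0 in the comparisons with WT, except Pcdh12 in PCC, while semaphorins, plexins and netrins lie on both sides.

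PCC was compared with HYP to see what differs between the stages of the same mutant line. Fewer members were called: 13 of 47 tested (27.7%) were higher in PCC and 7 (14.9%) lower, and 21.8% of the 3148 genes tested were called higher and 22.6% lower, 44.4% in all. Epha8, Cntnap5b, Pcdhga3, Pcdhga2 and Nfasc had the largest rises, and Dscaml1, Cdh17, Slit1, Sema6a and Plxna3 the largest falls under the rule used to name genes. The median log2 fold change was 0.94 over the members and 0.43 over all genes tested, and 17 members (36.2%) did not overlap between the groups, against 51.6% of all genes. The split depends on the scaling, with 65.0% of the member calls higher here, 77.8% (21 higher, 6 lower) with the recovered library totals and 76.0% (19 and 6) with the deposited size factors. The split of all calls moved as well, to 70.8% higher with the recovered totals and 61.4% with the deposited size factors. With DESeq2, 60.7% of the member calls were higher (17 and 11), against 36.7% of all calls. The chromaffin sum rose 1.70-fold and the cortex sum was 2.79-fold lower.

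Epha8 rose by 4.33 ± 0.44 on the log2 scale from HYP to PCC (20.2-fold, adjusted p = 0.00133), without overlap. Nfasc rose by 2.43 ± 0.27 (5.37-fold, adjusted p = 0.00157), Cdh22 by 1.71 ± 0.21 (adjusted p = 0.00213) and Cntnap5b by 3.17 ± 0.54 (0.555 to 1.35 CPM in HYP, 2.14 to 15.8 CPM in PCC, adjusted p = 0.00774). Pcdhga3 was at 1.05, 0.552, 0.564, 0.337 and 0.488 CPM in HYP, overlapping the WT range of 0.370 to 0.679 CPM, and at 4.15, 4.22, 5.20, 7.28 and 2.09 CPM in PCC. It rose by 2.78 ± 0.40 (adjusted p = 0.00344) and Pcdhga2 by 2.49 ± 0.40 (adjusted p = 0.00651). Plxnb1 and Sema3c rose by 1.42 ± 0.20 (adjusted p = 0.00285) and 1.58 ± 0.29 (adjusted p = 0.0112). L1cam is not in the table of this comparison.

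Dscaml1 fell by 2.44 ± 0.44 from HYP to PCC (adjusted p = 0.01) and Cdh17 by 1.96 ± 0.32 (adjusted p = 0.00666). Slit1 was at 11.99, 2.34, 5.89, 2.55 and 10.7 CPM in PCC, all below the lowest HYP sample at 14.5 CPM, and fell by 1.82 ± 0.49 (adjusted p = 0.0444). Without any single HYP sample or without PCC replicate 2, 3 or 4 its call was lost (adjusted p between 0.0564 and 0.1045). Sema6a fell by 1.39 ± 0.24 (adjusted p = 0.00804). Plxna3, a receptor of secreted semaphorins, fell by 0.74 ± 0.18 (adjusted p = 0.0302), a call that was lost without HYP replicate 1, 4 or 5 or PCC replicate 3 and with each of the other edgeR scalings (adjusted p between 0.0559 and 0.252). Plxnc1 fell by 1.79 ± 0.39 (adjusted p = 0.0207) and lost its call without PCC replicate 2 or HYP replicate 3, 4 or 5 (adjusted p between 0.0511 and 0.0616).

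Over the 83 members with counts in all 15 samples, group means rose from WT over HYP to PCC in 57 (68.7%) and fell in 13 (15.7%), and these orders held for 44.2% and 40.6% of the 5492 genes with such counts. The mean was highest in HYP for 11 members (13.3%), against 6.81% of all genes, namely Cadm2, Cadm3, Cdh2, Dscaml1, Epha4, Flrt3, Ncam2, Pcdh9, Slit1, Tenm4 and Unc5d, a list made after the values were seen. These are orders of means, and neighbouring groups can overlap, as for Tenm4 at 25.5 to 119 CPM in HYP and 45.5 to 92.7 CPM in PCC. Cdh24 and Sema3a were lowest in HYP. Of the pathway partners 22 were tested in PCC vs. HYP, with 7 higher and 2 lower, and the 40.9% called were below the 44.4% of all genes tested.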

How the data were processed

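Total RNA (RIN above 6.5) was sequenced with paired-end reads on the Illumina platform, and reads were counted per gene on Rn06. HISAT2 2.0.5 and featureCounts 1.5.0-p3 are given in the submitters' processing notes, and the strand setting is not given in the sources used here, so that overlapping and antisense genes cannot be told apart. For each comparison the authors deposited raw read counts per gene, a normalized signal (the count divided by 1 size factor per sample), FPKM, and their own p-values, adjusted p-values and log2 fold changes, and listed only genes they had called. The deposited log2 fold changes were not used, and the deposited p-values served only to recover how many genes the authors had tested (18790 for PCC vs. WT, 18057 for HYP against WT and 17454 for PCC against HYP, the order of the triplets below).

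Counts were tested with edgeR 4.0.16 (limma 3.58.1, R 4.3.3) by the quasi-likelihood test on the 10 samples compared, after filterByExpr (682, 298 and 212 genes removed) and TMM scaling over the listed genes, which hold 19.3 to 62.0% of the reads. P-values were adjusted by Benjamini-Hochberg over those numbers of genes, with genes outside the tables taken to rank after the listed ones, and a gene was called at an adjusted p under 0.05. The SE is the absolute log2 fold change over the root of F. No overlap means that every sample of a group lies above every sample of the other. CPM per sample use TMM over the 5492 genes with counts in all 15 samples. Each sample is a separate rat.

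Named genes were, in PCC vs. WT, up to 2 rises and 2 falls per family, and in the other comparisons 5 of each over all members, the largest called with at least 1 CPM and no overlap. Further members and partners were chosen after their values were seen. The members and lists were chosen with earlier results of these data known. On simulated counts the fit recovered 93, 92 and 95% of genes changed by 1 on the log2 scale and 100% of those changed by 2 (7683, 4406 and 3360 genes). The simulated counts varied less between samples than the real ones. Only genes of higher count were changed, and p-values were adjusted over the fitted genes alone. These shares are therefore no measure of the recovery of members, many of which have low counts. Alternatives were DESeq2 1.42.0, other library sizes and filters, 1 fit of all samples, adjustment over listed genes, a replicate block and leaving out each sample. Tables and plots were made with Python 3.11.15, numpy 2.4.6, pandas 2.3.3 and matplotlib 3.10.9.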

Additional observations from a re-analysis of the deposited data

Results flagged for a closer look

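In 12 of 105 groups of 5 samples, the highest or lowest CPM of a named gene stood apart from the others by Dixon's ratio at its 95% level (0.71). That level is meant for normally distributed values, which the CPM of genes with few reads are not. The number of flags was therefore not compared with chance. In WT samples, the high values were Efnb2 at 114 CPM in replicate 3 (nearest 80.8), Epha8 at 4.15 in replicate 4 (nearest 1.19), Plxnb1 at 68.5 in replicate 5 (nearest 27.3) and Slitrk6 at 1.86 in replicate 2 (nearest 0.574). Sema4d was low in WT replicate 4 (8.67 CPM, nearest 15.0). Cntnap5b at 0.101 CPM in WT replicate 1 and Dscaml1 at 0.103 CPM in WT replicate 2 were the only WT samples with counts of these genes. In HYP samples, Cdh22 was low in replicate 3 (13.7 CPM, nearest 23.4), as was Plxnb1 (36.4 CPM, nearest 56.3), and Cntnap5b was high in replicate 4 (1.35 CPM, nearest 0.732). In PCC samples, Efnb2 was high in replicate 5 (54.3 CPM, nearest 28.2) and Pcdh9 in replicate 2 (13.7 CPM, nearest 3.46).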

How the results depend on the processing

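No count of members reversed, and no called member changed sign in the 19 alternatives of any comparison. In PCC vs. WT, members higher fell to 41 of 57 tested with at least 10 counts in every sample, and members lower to 7 with the total of the listed counts. In HYP vs. WT, 7 members were lower, against 11 when adjusted over the listed genes only, 4 with the recovered library totals, 1 with the total of the listed counts, 3 with at least 10 counts in every sample and 3 with all 15 samples in 1 fit. In PCC vs. HYP, 13 members were higher, against 36 when adjusted over the listed genes, 21 with the recovered library totals and 23 of 43 in the fit of 15 samples, and 7 were lower, against 11 with DESeq2 and 11 when adjusted over the listed genes, where 22 of 22 partners were called instead of 9. The cause was not tested where a scaling or tool moved a count. Relative to the TMM scaling, the median log2 fold change of all genes moved by 0.29 and 0.50 in PCC vs. WT and by 0.19 and 0.46 in HYP vs. WT with the recovered totals and the total of the listed counts, and in PCC vs. HYP by 0.22 and 0.15, by 0.11 with the deposited size factors and by -0.17 with DESeq2.

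Leaving out 1 sample at a time gave 63 to 70 members higher and 10 to 13 lower in PCC vs. WT (29 to 34 partners called), 49 to 61 and 4 to 7 in HYP vs. WT (20 to 29 partners), and 9 to 19 and 3 to 9 in PCC vs. HYP (3 to 10 partners). The lower count in HYP vs. WT was 4 without WT replicate 3 or HYP replicate 5. In PCC vs. HYP it was 4 without PCC replicate 2 or HYP replicate 3 and 3 without HYP replicate 4 or 5, and 5, 4, 3 and 4 partners were called without PCC replicate 2 and HYP replicates 3, 4 and 5. Of the values of named genes, called or not, 768 stayed on the same side of the threshold in these fits, 46 lost a call and 6 gained one. Correlations of samples with the same replicate number were -0.23 to 0.24. Samples with different numbers were not correlated for reference, so this does not settle whether the numbers pair the rats. With the replicate block, PCC vs. HYP had 8 members higher, 3 lower and 2 partners called, and 12 values of named genes lost their call. Members under about 1 CPM rest on few reads, and differences among them were not detectable at this depth where intervals overlap.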

Other observations

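Among netrin receptors, which were looked at after their values were seen, Unc5c was higher in PCC than in WT and Unc5d lower in PCC than in HYP. Unc5c was at 30.1 to 71.9 CPM in WT, 76.9 to 141 CPM in HYP and 141 to 184 CPM in PCC samples and rose by 1.56 ± 0.22 on the log2 scale in PCC over WT (edgeR's quasi-likelihood test, adjusted p = 0.000499). Unc5d was at 0.339 to 3.86 CPM in WT, 0.494 to 4.496 CPM in HYP and 0.153 to 1.06 CPM in PCC samples. It fell by 2.60 ± 0.62 from HYP to PCC (adjusted p = 0.0277), with overlapping groups. Pcdh1, a protocadherin outside the clusters, was at 19.0 to 40.9 CPM in WT and 78.7 to 172 CPM in PCC samples and rose by 2.16 ± 0.27 (adjusted p = 0.000267). The contactin Cntn1, a partner of L1 family proteins on axons, was at 1.82 to 2.74 CPM in WT, 6.91 to 21.0 CPM in HYP and 8.59 to 77.1 CPM in PCC samples, with PCC replicate 4 the highest.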
